A study of Mus musculus with 6 samples.

Results

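Antioxidant enzymes are the genes described here: the glutathione peroxidases Gpx1, Gpx3 and Gpx4, the superoxide dismutases Sod1 and Sod2, catalase (Cat), the peroxiredoxins Prdx2 and Prdx6, and 2 genes bound up with the same chemistry, the thioredoxin-binding protein gene Txnip and the haem oxygenase gene Hmox1. They were chosen by name, and all 10 were present among the 52636 genes counted. The data are single-cell RNA counts from whole retinas of male C57BL/6J mice at 12 months of age, in 2 genotypes of 3 retinas each, Dram2 wt/wt and Dram2 ko/ko. Dram2 ko/ko mice lack exon 4 of Dram2, which encodes a lysosomal membrane protein, in every cell of the body, after deletion with CRISPR/Cas9, so the deletion was not specific to any cell type described below. Wt/wt mice carried the intact gene, and no mouse was treated. The retina was taken as the replicate. One text deposited with the labels speaks of fewer samples and of choroid, so p values may in part measure technical spread. Replicate 3 of each genotype was run as batch 1, and replicates 1 and 2 as batch 2.

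Cells were captured in droplets with the 10x Genomics 3′ kit, in which every captured RNA molecule carries a unique molecular identifier (UMI) and only the 3′ end of the transcript is read. The cell types are those the authors assigned, for 45746 of 46375 cells: 42359 photoreceptors, 2083 interneurons, 942 glia, 246 mesenchymal cells and 116 cells of the retinal pigment epithelium (RPE). UMIs were summed per retina and type, and levels are given as CPM, a gene's UMIs per 1000000 UMIs in that sum. Because 1 UMI is counted per molecule at the 3′ end, CPM does not grow with transcript length. Depth was 3463728 to 6563762 UMIs per retina, and the sums ran from 2892834 to 4675272 UMIs in photoreceptors down to 17073 to 35968 in RPE cells, where 1 UMI is worth 27.8 CPM or more. Mitochondrial genes took 0.405% to 0.720% of UMIs in batch 2, but 3.22% (wt/wt) and 2.75% (ko/ko) in batch 1. Photoreceptors had 38.5 CPM of Dram2 in wt/wt retinas and 36.9 CPM in ko/ko retinas, but its counted 3′ end lies outside the deleted exon, so this does not check the genotypes. Marker lists were summed in each type. The RPE list came to 91470 to 125194 CPM in RPE cells and to at most 241 elsewhere, and the glia list to 49944 to 63327 CPM in glia. In interneurons the bipolar list came to 7758 to 14291 CPM. The amacrine list was at 106 to 2205 CPM in interneurons but also at 915 to 1269 CPM in glia. The rod list, at 65695 to 100643 CPM in photoreceptors, was also at 6610 to 15173 CPM in the sums of the other 4 types, and the part of rod RNA in the levels given for them was not tested. Mesenchymal cells were a mixture of 86 microglia-like cells, 144 vascular-like cells and 16 assigned to neither.

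Respiring cells leak superoxide, mainly from mitochondria. The superoxide dismutases turn it into hydrogen peroxide, which catalase breaks down in peroxisomes, and which the peroxiredoxins and glutathione peroxidases reduce with electrons from thioredoxin or glutathione. The outer retina consumes much oxygen, is exposed to light and is rich in polyunsaturated lipids, and Gpx4 is the enzyme known for reducing peroxides within membranes. All 3 glutathione peroxidases named here are selenoproteins: a TGA codon, elsewhere a stop signal, is read as selenocysteine and forms the active site.

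The sequences around that codon are shown because they mark the 3 enzymes as relatives and because they bear on how far the Gpx4 counts can be read. In each line the TGA codon is in capitals within 27 bases of coding strand of the mouse genome GRCm38 (transcripts of GENCODE M21). The codon is number 47 of Gpx1 (chr9:108339451-108339453, plus strand), number 73 of Gpx3 (chr11:54907256-54907258, plus strand) and number 129 of the Gpx4 transcript used (chr10:80054737-80054739, plus strand), in each case in a coding exon. The last line is the aligned stretch of Gpx4-ps2, a transcribed processed pseudogene elsewhere on the same chromosome (codon at chr10:45875468-45875470, plus strand).
Gpx1: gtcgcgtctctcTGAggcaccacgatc
Gpx3: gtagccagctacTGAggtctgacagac
Gpx4: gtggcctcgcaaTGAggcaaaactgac
Gpx4-ps2: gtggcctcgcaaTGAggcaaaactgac
The Gpx4 and Gpx4-ps2 lines are the same letter for letter. Over the whole match, 731 of 733 aligned bases were identical (99.727%), and the match runs to the last base of the Gpx4 transcript, which is the end that the 3′ kit reads. Of the 31-base words of Gpx4, 66.4% also occur in the pseudogene. The 2 loci held 7439 UMIs (Gpx4) and 28303 UMIs (Gpx4-ps2), and the pseudogene took 66.1% to 87.9% of their sum across all retinas and types. Reads from these 2 loci can hardly be told apart, so Gpx4 is given below alone and together with Gpx4-ps2.

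Between cell types, Prdx6 was highest in glia, at 1495 ± 346 CPM in glia (SD, n = 6 retinas) against 32.1 ± 12.1 in photoreceptors. Gpx4 was highest in RPE cells, at 1481 ± 212 CPM, Gpx1 and Txnip were highest in mesenchymal cells, and Gpx3 was found mainly in glia. Type means of Sod2 ran only from 114 to 256 CPM and those of Prdx2 from 217 to 526 CPM. Photoreceptors had the highest mean of none of the 8 members that could be tested, but how often this holds over all genes was not counted. For the test, 1 edgeR model with a term for the retina took in all 30 sums. Any difference between the 5 types was called for 8 of the 8 members that passed the filter on low counts (adjusted p under 0.05), beside 94.3% of the 6290 genes tested, so the count itself says nothing particular about these genes. Gpx3 and Hmox1 did not pass the filter. Since the types were themselves found by clustering these counts, p values between them are not independent evidence. For single pairs of types the number of the 8 members called is given with the share of all genes called. It was 5 between photoreceptors and interneurons (66%), 7 between photoreceptors and glia (69%), 6 between photoreceptors and mesenchymal cells (64.2%) and 6 between photoreceptors and RPE cells (51.3%). Interneurons differed from glia in 5 (59.3%), from mesenchymal cells in 5 (57.4%) and from RPE cells in 6 (46%). Between glia and mesenchymal cells it was 6 (44.8%), between glia and RPE cells 5 (38.6%), and between mesenchymal cells and RPE cells 5 (38.9%). Log2 differences come from edgeR with its scaling factors and can therefore depart from the ratio of mean CPM. In contrasts with RPE cells the median over all genes tested was 0.83 to 1.03 log2 units higher in the other type.

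**Figure D1:**
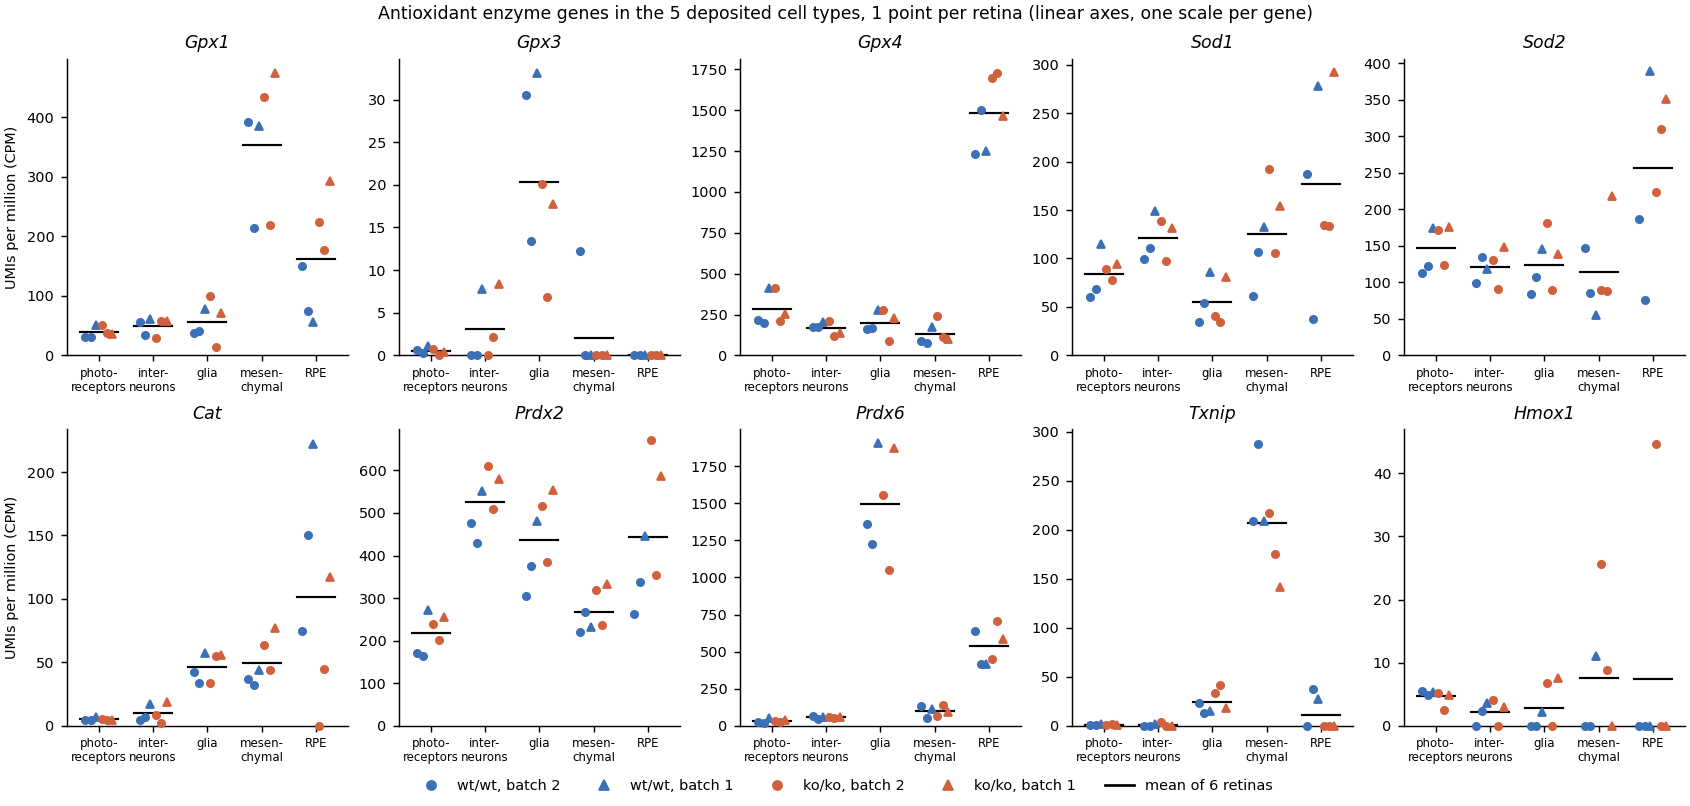
Level of each of the 10 genes in CPM (y axis, each gene with its own linear scale) in the 5 cell types (x axis). Each point is 1 retina, with wt/wt and ko/ko retinas in different colours, triangles for the batch 1 retinas, and the bar is the mean over 6 retinas; Prdx6 stands out in glia, Gpx4 in RPE cells, and Gpx1 and Txnip in mesenchymal cells.

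Gpx1 (chr9:108338903-108340343, plus strand) is the common cytosolic and mitochondrial glutathione peroxidase. In mesenchymal cells it was at 213 CPM in the lowest retina, 389 in the median and 475 in the highest, and in RPE cells at 55.6, 164 and 293 CPM. These 2 types led in the order of levels, and mesenchymal cells were above RPE cells in 6 of 6 retinas, by 1.48 on the log2 scale (SE 0.32, adjusted p = 9.8e-05, edgeR). In the ko/ko retinas alone the difference was 0.96 and no longer passed (adjusted p = 0.0796). RPE cells were above glia by 1.11 (SE 0.40, adjusted p = 0.0228, higher in 5 of 6 retinas), although all their Gpx1 counts together were 22 UMIs. Glia (13.8 to 100.5 CPM), interneurons (28.5 to 61.8) and photoreceptors (30.8 to 50.8) overlapped, and neighbours among them did not pass the test. Within the mesenchymal cells the level of Gpx1 was 189 to 692 CPM in the microglia-like and 175 to 553 in the vascular-like cells, which overlapped. In sums over such mixed cells, fewer cells of a kind and less RNA per cell cannot be told apart.

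Gpx3 (chr11:54902453-54910377, plus strand) encodes the secreted glutathione peroxidase of plasma and extracellular fluid. It was sparse, with 71 UMIs over all cells. Glia held 36 of them, with a lowest level of 6.88 CPM, a median of 18.9 and a highest of 33.1, and in 6 of 6 retinas they were above interneurons. Photoreceptors had 11 UMIs, at 0 to 1.12 CPM. Of the 23 UMIs in interneurons, 11 each came from the 2 batch 1 retinas and 1 from the other 4. The summed amacrine list in interneurons was also higher in those 2 retinas, at 1943 and 2205 CPM against 106 to 534 in the other 4. Glia held this list too, at 915 to 1269 CPM, so it is not particular to interneurons. Its part in the Gpx3 counts was not tested. In RPE cells 0 UMIs were counted, which allows up to 19.8 CPM over all 6 retinas, against 23.2 CPM in glia pooled in the same way, and the difference was not tested.

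Gpx4 (chr10:80047166-80056439, plus strand), the phospholipid hydroperoxide peroxidase, was counted at 1235 CPM in the lowest RPE sum, 1484 in the median and 1730 in the highest. Photoreceptors came next with 201, 235 and 414 CPM. The lowest RPE sum thus lay above every sum of any other type, and the difference from photoreceptors was 2.01 on the log2 scale (SE 0.15, adjusted p = 3.9e-19). Photoreceptors were above glia (89.4 to 278 CPM) in 6 of 6 retinas by 0.61 (SE 0.13, adjusted p = 3.2e-05). Glia were called above interneurons (121 to 208 CPM) by 0.40 (adjusted p = 0.0148), but by plain CPM only in 3 of 6 retinas, and interneurons and mesenchymal cells (74.7 to 243 CPM) did not pass. With Gpx4-ps2 added to Gpx4, the mean was 6754 CPM in RPE cells, 1374 in photoreceptors, 958 in glia, 864 in interneurons and 598 in mesenchymal cells, the same order, and RPE cells were above photoreceptors by 1.92 (SE 0.13, adjusted p = 2.3e-21). Interneurons then also passed the test against mesenchymal cells (0.39, adjusted p = 0.0202). The RPE sums also held 19212 to 30256 CPM of the glia list, among them Apoe, Clu and Rlbp1, with Slc1a3 and Kcnj10 at 0 and Aqp4 at 1 UMI, and the part of glial RNA in the Gpx4 of these sums was not tested.

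**Figure D2:**
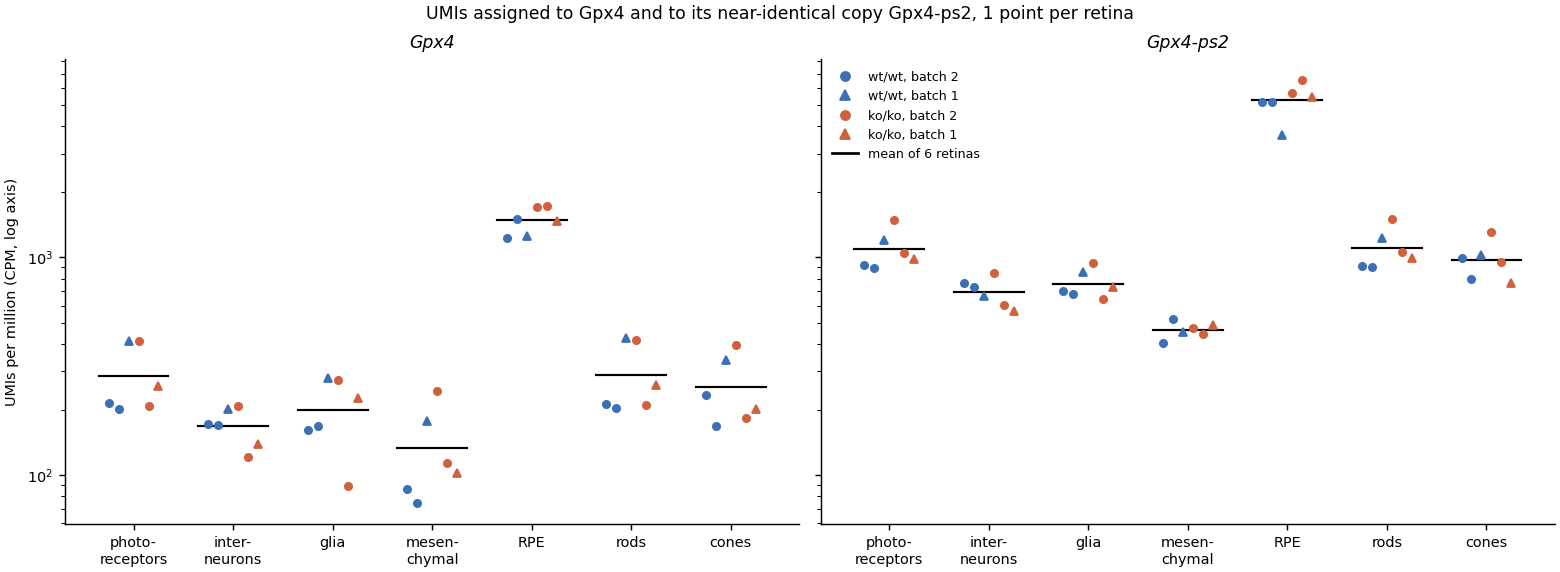
Level in CPM (y axis, log scale) of Gpx4 (left) and Gpx4-ps2 (right) in 5 cell types and in rods and cones (x axis). Each point is 1 retina, triangles are batch 1 and the bar is the mean over 6 retinas; the pseudogene lies above Gpx4 in every class, and RPE cells are highest for both.

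Sod1 (chr16:90220754-90226329, plus strand), the cytosolic copper and zinc enzyme, was at 60.2 CPM in the lowest, 83.3 in the median and 115 in the highest photoreceptor sum and at 97.1, 121 and 149 CPM in interneurons. Mesenchymal cells (61.4 to 192 CPM) and RPE cells (37.6 to 293 CPM, 27 UMIs in all) had wider, overlapping ranges. Glia were lowest, at 34.4, 46.9 and 86.1 CPM, below photoreceptors in 6 of 6 retinas by 0.71 on the log2 scale (SE 0.16, adjusted p = 8.5e-05). No other neighbours in the order passed, but RPE cells, with the highest mean of 177 CPM, were called above photoreceptors (0.69, adjusted p = 0.0442) and above glia (1.39, adjusted p = 0.00059) on the log2 scale in edgeR, on those 27 UMIs and with no fit that leaves out a retina. Among mesenchymal cells Sod1 was at 0 to 115 CPM in the microglia-like (3 UMIs in all) and 138 to 230 in the vascular-like cells, without overlap and with no test. A copy of Sod1, the locus Gm8566, held 760 UMIs beside the 2582 of Sod1, and Scaf4 (582 UMIs) overlaps Sod1 on the other strand.

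Sod2 (chr17:13006846-13040063, plus strand) encodes the mitochondrial manganese enzyme. Photoreceptors had 112 CPM in the lowest, 148 in the median and 176 in the highest retina, and glia 84.0, 123 and 181 CPM. Photoreceptors were above glia in 5 of 6 retinas by 0.43 (SE 0.14, adjusted p = 0.0048). Interneurons (90.6 to 149 CPM), mesenchymal cells (55.1 to 218) and RPE cells (75.2 to 389, 39 UMIs in all) had overlapping ranges, but photoreceptors were also called above interneurons by 0.58 (adjusted p = 7.8e-06) and above mesenchymal cells by 0.55 (adjusted p = 0.0144). The mean was highest in RPE cells, at 256 CPM, and they were called above interneurons (1.01, adjusted p = 0.0023), mesenchymal cells (0.98, adjusted p = 0.0114) and glia (0.87, adjusted p = 0.0131), but their difference from photoreceptors of 0.43 did not pass (95% interval -0.09 to 0.95).

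Cat (chr2:103453849-103485160, minus strand) encodes peroxisomal catalase and was low in both neuronal types. Photoreceptors had 4.21 CPM in the lowest, 4.47 in the median and 6.99 in the highest sum, and interneurons 2.16, 7.68 and 19.1. Glia were at 33.5, 48.5 and 57.4 CPM and mesenchymal cells at 32.0, 44.0 and 77.0 CPM, without overlap with either neuronal type. RPE cells ranged from 0 to 222 CPM on 17 UMIs. Glia were above interneurons by 2.13 on the log2 scale (SE 0.32, adjusted p = 2.7e-08), and interneurons above photoreceptors by 0.87 (SE 0.31, adjusted p = 0.0111). The neighbours among RPE cells, mesenchymal cells and glia did not pass the test.

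Prdx2 (chr8:84969587-84974834, plus strand), a cytosolic thioredoxin-dependent peroxidase abundant in neurons, was at 165 CPM or more in every sum of the 5 types. Interneurons had 430 CPM in the lowest, 530 in the median and 610 in the highest sum, RPE cells 262, 400 and 671, and glia 306, 433 and 553. Interneurons against RPE cells (0.39, 95% interval 0.02 to 0.75) and RPE cells against glia (-0.24, -0.62 to 0.14) did not pass the test. The first interval leaves out 0 although its unadjusted p was 0.0529 in edgeR, so it is only approximate. Glia were above mesenchymal cells (221 to 334 CPM) in 6 of 6 retinas by 0.70 (SE 0.15, adjusted p = 5.6e-05), and mesenchymal cells and photoreceptors (165 to 272 CPM) overlapped. A pseudogene copy, Tdpx-ps1, held 613 UMIs beside the 7957 of Prdx2, and Prdx2 overlaps Junb (1638 UMIs) and Rnaseh2a (508 UMIs) on the other strand, so part of its counts is uncertain where counting ignored strand.

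Prdx6 (chr1:161240112-161251219, minus strand), a peroxiredoxin that also reduces and cleaves phospholipids, differed between every pair of neighbours in its order. Glia had 1053 CPM in the lowest, 1459 in the median and 1904 in the highest sum. RPE cells followed with 414, 516 and 710 CPM, below every glial sum. The difference was 1.75 on the log2 scale (SE 0.19, adjusted p = 1.3e-12). RPE cells lay above mesenchymal cells (53.4 to 140 CPM) by 2.13 (SE 0.28, adjusted p = 2.8e-09), mesenchymal cells above interneurons (45.7 to 64.0 CPM) by 1.04 (adjusted p = 0.00061), and interneurons above photoreceptors (21.9 to 54.2 CPM) by 0.48 (adjusted p = 0.0068). Each of these orders held in 6 of 6 retinas. The glia list summed to 19212 to 30256 CPM in RPE cells, 1804 to 12054 CPM in mesenchymal cells, 585 to 1179 CPM in interneurons and 352 to 895 CPM in photoreceptors, and its part in the Prdx6 of these types was not tested.

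Txnip (chr3:96557957-96561883, plus strand) encodes a protein that binds thioredoxin and limits glucose uptake. Mesenchymal cells held 111 of its 172 UMIs, at 141 CPM in the lowest, 209 in the median and 288 in the highest retina. Glia had 13.4, 20.3 and 41.3 CPM, and photoreceptors, on 23 UMIs, 0.304 to 2.24 CPM. Mesenchymal cells were above glia in 6 of 6 retinas by 3.19 on the log2 scale (SE 0.33, adjusted p = 2.0e-13). Within them, the vascular-like cells had 133 to 389 CPM and the microglia-like cells 0 to 377. The antisense gene Gm15441 at this locus held 17 UMIs.

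Hmox1 (chr8:75093621-75100589, plus strand), the inducible enzyme that breaks down haem, was low throughout. Photoreceptors had 99 UMIs, at 2.51 CPM in the lowest, 5.05 in the median and 5.51 in the highest retina. The other types had 1 to 11 UMIs each, too few to order them.

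Other genes of the antioxidant system were taken from a list of 48 that holds further peroxidases and peroxiredoxins, thioredoxin and glutathione enzymes, glutathione S-transferases and their regulators. Of these, 33 were tested between types and 32 called, all except Glrx5, beside the 94.3% of all genes. Mean CPM was highest in glia for 10 of the 32 called genes, in RPE cells for 10, in mesenchymal cells for 8, in interneurons for 4 and in photoreceptors for 0. Against the type with the next highest mean, 4 of those in glia, 3 in RPE cells, 4 in mesenchymal cells and 1 in interneurons passed the test. The tally by highest mean was not made for all genes tested, so nothing particular to this list is read from it. Depth was also unlike, with 151269 UMIs in all RPE sums together against 21117203 in photoreceptors. The largest differences with the first-named type higher were Selenop (the secreted selenium carrier, mesenchymal cells minus RPE cells), Gstm5 (a glutathione S-transferase, glia minus mesenchymal cells, 4.27) and Prdx4 (the peroxiredoxin of the endoplasmic reticulum, glia minus RPE cells). In RPE cells Selenop had only 2 UMIs and Prdx4 only 1, against 571 of Selenop in mesenchymal cells and 136 of Prdx4 in glia, so no fold is given for these, and their rank rests on those few counts. In the other direction they were Selenop (interneurons minus mesenchymal cells, -8.41), Gsta4 (a transferase for lipid aldehydes, photoreceptors minus RPE cells, -7.36) and Mgst1 (a microsomal transferase, photoreceptors minus glia, -6.88). The values are log2 differences, and all 6 differences had an adjusted p of 0.00075 or less in edgeR.

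**Figure D3:**
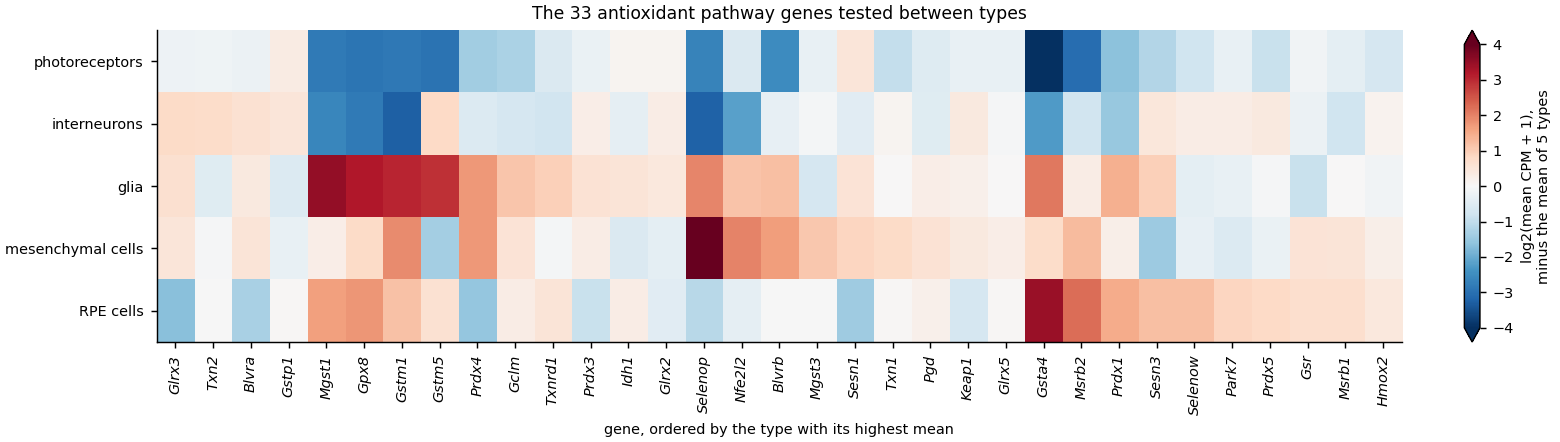
Heat map of the 33 other antioxidant genes tested between types (columns, ordered by the type with the highest mean) in 5 cell types (rows). Colour gives log2(mean CPM + 1) minus the gene's mean of it over the types, with the colour scale ending at 4 in both directions. Glia, mesenchymal cells and RPE cells hold most of the high values, and no gene has its highest mean in photoreceptors. The same was not counted for all genes.

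Rods and cones were compared within the photoreceptors, after clustering these cells without the 10 members and without the 48 other genes. The cone-like cells were 904, with a median of 1891 UMIs, and all other photoreceptors, called rods here, were 41455, with a median of 421. Of the 10 leading genes of the cone-like cluster, 7 were cone markers. Of those of the rods 3 were rod markers (Cnga1, Slc24a1 and Nr2e3) and 5 were globin genes, and 26 red-blood-cell-like cells were kept among the rods. Without these cells 5 of the 10 were rod markers, and the Prdx2 difference given below was the same, 1.24. No single cluster of rods, set against the other photoreceptors, had a rod marker among its 10 leading genes. The cone list summed to 63930 to 74240 CPM in cones and 873 to 1368 in rods, whereas the rod list was at 69542 to 105947 CPM in rods and still at 21938 to 31834 in cones. Rod RNA carried into the cone sums and expression of these genes by the cones themselves were not told apart. Their part in the differences was not tested. In an edgeR fit that kept each retina as a block, 6 of the 10 members could be tested and 3 were called, 2 higher and 1 lower in cones, beside 40.2% of all 10811 genes (20.5% higher and 19.7% lower).

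**Figure D4:**
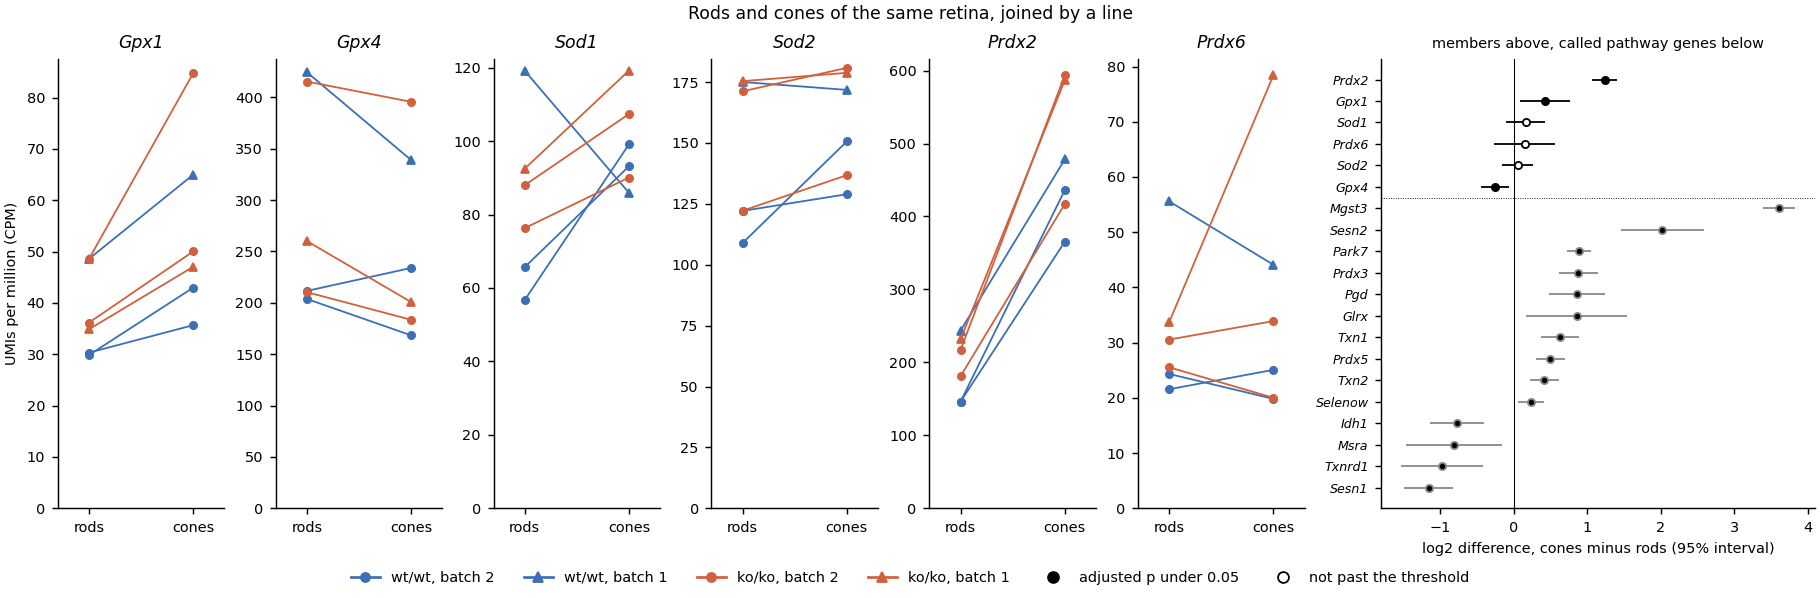
Level in CPM (y axis, linear from 0) of the 6 members tested in rods and cones (x axis), where each line joins the rod and the cone sum of 1 retina, coloured by genotype, and, on the right, the log2 difference with its 95% interval for these members and for the 14 other antioxidant genes called (filled points passed the test). The Prdx2 lines rise in all 6 retinas, from 146 to 244 CPM in rods to 365 to 593 CPM in cones.

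Prdx2 was the member with the clear difference. In wt/wt rods it was at 146, 146 and 244 CPM and in wt/wt cones at 436, 365 and 478 CPM. In ko/ko rods it was at 217, 181 and 232 CPM and in ko/ko cones at 593, 417 and 587 CPM. Every cone sum lay above every rod sum, and the log2 difference was 1.24 (SE 0.09, adjusted p = 1.4e-23). Over all 21 alternative settings it was 1.05 to 1.33 and always passed, with 1.33 in the 4 batch 2 retinas alone and 1.27 with the copy Tdpx-ps1 added. Of the types in which Prdx2 was also high, the bipolar list of the interneurons summed to 206 to 364 CPM in cones and 569 to 672 in rods, and the glia list to 564 to 1079 CPM in cones and 330 to 870 in rods, higher in cones in 6 of 6 retinas. Their part in the difference was not tested.

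Gpx1 was at 29.9 to 48.6 CPM in rods and 35.7 to 84.8 in cones, higher in cones in 6 of 6 retinas by 0.43 (SE 0.17, adjusted p = 0.0374). Gpx4 was lower in cones in 5 of 6 retinas, by 0.25 on the log2 scale, with 204 to 424 CPM in rods and 168 to 396 in cones (adjusted p = 0.0290). Both calls were weak. That of Gpx1 was lost without wt/wt 2 (adjusted p = 0.0555), wt/wt 3 (0.0820), ko/ko 1 (0.116), ko/ko 2 (0.0600) or ko/ko 3 (0.0574), and that of Gpx4 without wt/wt 2 (0.0939), wt/wt 3 (0.0928), ko/ko 2 (0.0662) or ko/ko 3 (0.119). In batch 2 alone both were lost too, Gpx1 at 0.48 (adjusted p = 0.102) and Gpx4 at -0.14 (adjusted p = 0.348). In these fits with 1 retina left out the Gpx1 difference was 0.37 to 0.44 and that of Gpx4 -0.24 to -0.21. With Gpx4-ps2 added, the Gpx4 difference was -0.23 (adjusted p = 0.0163).

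With all retinas, Sod1, Sod2 and Prdx6 were not called. Sod1 was at 56.8 to 119 CPM in rods and 85.9 to 119 in cones, a difference of 0.17 (95% interval -0.10 to 0.43). Without wt/wt 3, the only retina with less Sod1 in cones, it was 0.35 and passed (adjusted p = 0.0421). For Sod2 the difference was 0.06 (95% interval -0.15 to 0.27), which leaves out any change as large as that of Prdx2. Prdx6 differed by 0.15 (95% interval -0.26 to 0.57). Cat, Gpx3, Txnip and Hmox1 were too low to test. Txnip had 0 UMIs in cones, which allows up to 1.71 CPM over the 6 retinas, and 23 in rods, or 1.19 CPM, so a difference was not detectable.

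Among the other antioxidant genes 34 of 48 were tested between rods and cones and 14 called, 10 higher and 4 lower in cones, a share near that of all genes. Mgst3, a microsomal glutathione S-transferase and peroxidase, was at 17.9 to 33.7 CPM in rods and 233 to 389 in cones, without overlap (log2 difference 3.61, SE 0.11, adjusted p = 6.9e-51). Sesn2, a sestrin that acts in stress and nutrient signalling, was higher by 2.02, and Park7 by 0.89. Sesn1 (-1.15), Txnrd1, the cytosolic thioredoxin reductase (-0.97), and Msra, which repairs oxidised methionine (-0.81), were lower in cones. The median log2 difference was 0.16 over the 6 members, 0.21 over the 34 and -0.04 over all genes.

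Between genotypes, no member passed. In Dram2 ko/ko against wt/wt, the members tested were 8 in photoreceptors, 6 in interneurons, 7 in glia, 4 in mesenchymal cells, 3 in RPE cells, 8 in rods and 5 in cones, and 0 were called in any of these classes by edgeR, limma-voom or DESeq2. The share of all genes called by edgeR was 0% in each class. None of the members reached an unadjusted p of 0.05 in edgeR either. In the same order of classes, it was reached by 109 of 13053 genes, 86 of 7698, 51 of 4130 and 150 of 1717. In RPE cells, rods and cones it was reached by 11 of 308, 86 of 12520 and 58 of 5202. With so few members tested per class, their 0 is not read as a difference from other genes. By limma-voom 0 genes were called in each class, and by DESeq2 0 except for 1 in RPE cells. The study, which also used limma-voom on sums per sample and type, did report genes differing between genotypes. These were in interneurons, mesenchymal cells and RPE cells only, and no member is among them. The fits here depart from that report, and the reason was not tested. With the batch as a covariate, or with a replicate block, genes were called in mesenchymal and RPE cells, but no member. Their counts are given with the alternatives at the end. The median log2 difference in photoreceptors was 0.12 over the 8 members and -0.01 over all genes. Of the 48 other antioxidant genes, 36 were tested in photoreceptors and 5 to 35 in the other classes, with 0 called in any. The comparisons could miss moderate differences, since the standard errors of the members were 0.19 to 0.48 on the log2 scale.

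**Figure D5:**
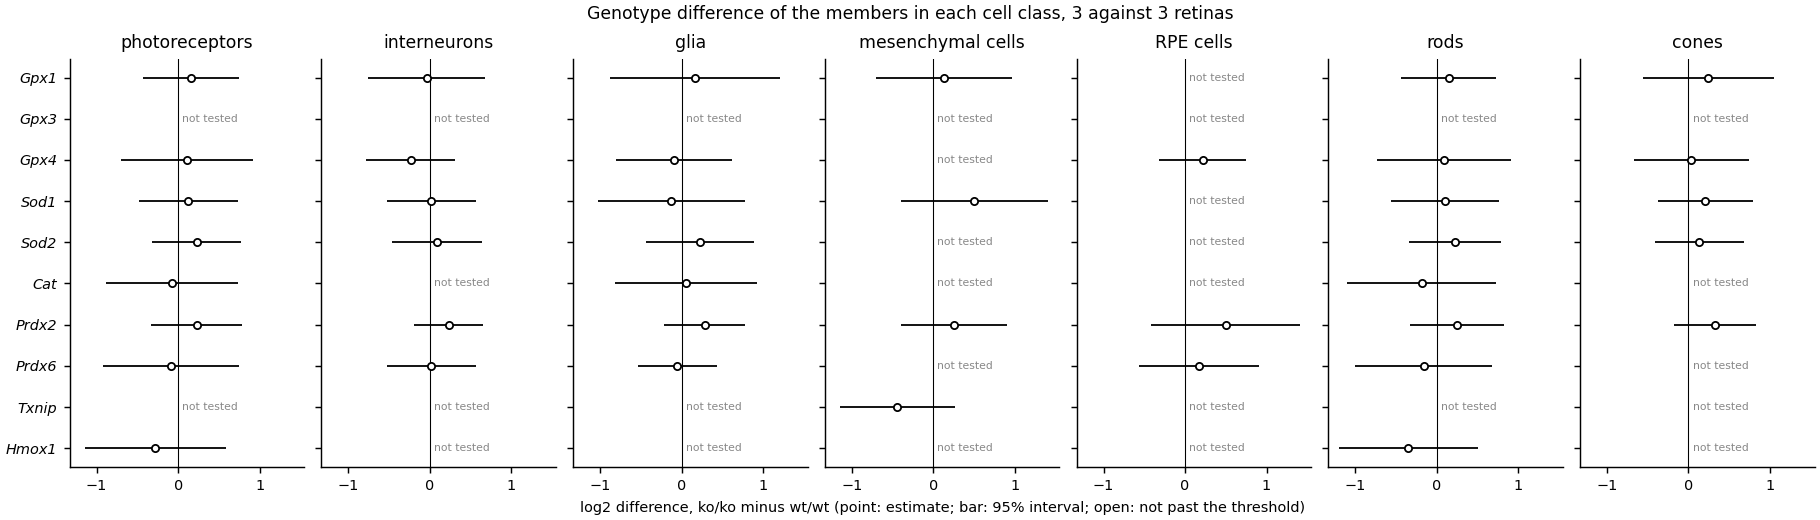
Log2 difference ko/ko minus wt/wt (x axis) of each member that could be tested (y axis), in 5 cell types, rods and cones. Points are edgeR estimates and lines their 95% intervals, all of which cross 0. In cones and in RPE cells all estimates lie to the right of 0, and those of Prdx2 do so in every class. The share of all genes to the right of 0 was not counted.

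Prdx2 was the only member tested in all 7 classes, and its difference was positive in each, from 0.23 in photoreceptors to 0.50 in RPE cells, none past the test, and it stayed positive under every alternative (0.10 to 0.77). In photoreceptors it was at 170, 165 and 272 CPM in wt/wt and 240, 201 and 256 CPM in ko/ko (95% interval of the difference -0.33 to 0.78). In glia it was at 306, 375 and 481 CPM in wt/wt and 516, 385 and 553 CPM in ko/ko (-0.22 to 0.78). The groups overlapped in both types. All classes come from the same retinas, and the rods and cones are part of the photoreceptors, so the classes are not independent. A positive sign was also not particular to Prdx2. It held for all 5 members tested in cones and all 3 in RPE cells. In photoreceptors it held for 5 of 8 members and for 24 of the 36 other antioxidant genes tested. The median log2 difference over all genes was 0.0006 in cones and -0.013 in RPE cells. The share of all genes with a positive sign was not counted, so nothing is read from these tallies.

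Gpx4 in photoreceptors was at 213, 201 and 414 CPM in wt/wt and 414, 208 and 256 CPM in ko/ko. The high values were those of wt/wt 3 and ko/ko 1, and the same retinas were highest for Gpx1, at 50.6 and 50.8 CPM against 30.8 to 37.3 in the other 4. The genotype difference of Gpx4 was 0.10 (95% interval -0.71 to 0.92), and 0.22 with Gpx4-ps2 added (-0.39 to 0.82). In RPE cells Gpx4 was at 1235, 1504 and 1251 CPM in wt/wt and 1700, 1730 and 1464 CPM in ko/ko, a difference of 0.22 (-0.32 to 0.75). Prdx6 in glia was at 1363, 1225 and 1904 CPM in wt/wt and 1555, 1053 and 1873 CPM in ko/ko, a difference of -0.05 with an interval of -0.54 to 0.44.

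In mesenchymal cells Txnip was at 209, 288 and 210 CPM in wt/wt and 218, 175 and 141 CPM in ko/ko, a difference of -0.44 (95% interval -1.14 to 0.26). The makeup of these sums also differed, with 20, 24 and 12 microglia-like cells in wt/wt and 8, 17 and 5 in ko/ko, and the part of that in the values was not tested. Gpx1 in RPE cells did not pass the filter. It was at 150, 75.2 and 55.6 CPM in wt/wt and 224, 177 and 293 CPM in ko/ko, on 2 to 5 UMIs per retina. These values do not overlap, but the share of all genes without overlap was not counted, so nothing is read from it. Of the 308 RPE genes that did pass the filter, 0% were called.

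Whether genotype acted differently in cones and in rods was tested as an interaction. Of 10811 genes 0 were called (389 at an unadjusted p under 0.05), and so were 0 of the 6 members. Prdx6 had the largest interaction of the members, 0.81 (SE 0.41, adjusted p = 0.999 in edgeR), and 0.08 to 1.12 over the alternatives. In cones it was at 19.8, 25.1 and 44.1 CPM in wt/wt and 33.9, 20.02 and 78.4 CPM in ko/ko, and the highest value, from ko/ko 3, rests on 25 UMIs.

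The batches were compared as well. In photoreceptors 755 of 13749 genes (5.49%; 2.39% higher and 3.11% lower in batch 1) were called between the 2 batch 1 and the 4 batch 2 retinas. Of the members 8 were tested and 0 called, although all 8 were higher in batch 1, by 0.24 to 0.86 on the log2 scale. Over the alternatives Gpx1 (-0.24 to 0.72), Gpx4 (-0.22 to 1.01) and Cat (-0.09 to 0.73) crossed 0, and the other members stayed above it. With Gpx4-ps2 added, the Gpx4 difference was 0.14. The largest difference was that of Prdx6, with 54.2 and 36.8 CPM in batch 1 against 21.9 to 30.8 CPM in batch 2 (0.86, adjusted p = 0.0571). The median log2 difference was 0.44 over the 8 members and -0.06 over all genes. Malat1 took 7.91% and 9.89% of UMIs in batch 1 and 11.3% to 16.4% in batch 2, and its part in these differences was not tested. Without ko/ko 1, a batch 2 retina, 5 members were called, but so were 4437 of all genes, against 755 with all retinas. Each batch held both genotypes, and with the batch as a covariate 0 members were called between genotypes.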

How the data were processed

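Single-cell RNA sequencing covered 6 retinas, 3 of each Dram2 genotype. The authors aligned reads to mm10 (GRCm38) with Cell Ranger, counted exonic reads, and deposited raw UMI counts, not normalized, with a table of cell types from Louvain clusters made in Seurat after integration over the batch. Whether counting used strand, and how reads of near-identical copies were assigned, is not given in the sources used here. Cell names carry no barcode, so barcodes shared by libraries could not be counted. All columns of the table were used. GENCODE M21 named 52403 of 52636 genes.

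Counts were summed per retina and class (5 deposited types, and rods and cones from scanpy clusters of the photoreceptors). Sums were tested with edgeR (glmQLFTest, TMM factors, filterByExpr, Benjamini-Hochberg adjustment over all genes tested, called at an adjusted p under 0.05). Genotype was the only term. Cell types, and rods against cones, had the retina as a block. The study's methods use limma-voom and name no covariate for this step. A count of 0 was taken to allow up to 3 counts, which covers counting error only. Scrublet marked only 3 cells and so failed as a doublet caller, and doublets were kept. In a chi-square of photoreceptor counts, the most alike pair of retinas, wt/wt 1 and wt/wt 2, had 1.67 per degree of freedom. The other pairs had 2.87 or more. No value for libraries known to share an animal was at hand, so this ratio cannot tell whether any pair does. All retinas were kept as replicates by their labels. Each fit was tested on simulated data with a common dispersion. Apart from depth and the differences put in, the simulated retinas were alike, so this gives no error rate for the real data. The members and lists were chosen with earlier results of these data known. Named genes were all members, and of the other antioxidant genes the 3 with the largest called difference in each direction, and for each member the 2 protein-coding genes most correlated with it over the type sums.

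Alternatives tried were DESeq2, limma-voom, RLE factors, no filter, sums without Malat1 and mitochondrial genes, stricter cells (at least 500 UMIs and at most 10% mitochondrial), sums without the top 5% of doublet scores per retina, batch as a covariate, a replicate block, retinas of 1 genotype or of batch 2, other clusterings, and each retina left out. Sums without 26 red-blood-cell-like cells and with near-identical copies added were chosen after seeing the data. Versions were R 4.3.3, edgeR 4.0.16, limma 3.58.1, DESeq2 1.42.0, Python 3.11.15, scanpy 1.11.5, scipy 1.17.1 and matplotlib 3.10.9.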

Additional observations from a re-analysis of the deposited data

Results flagged for a closer look

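Of the 70 groups of 6 sums (10 genes in 7 classes), 7 held a retina that stood apart from the other 5 by Dixon's ratio. A group with a single UMI in 1 retina and none elsewhere has a ratio of 1 by construction. Rods and cones are also part of the photoreceptors. The number of groups flagged is therefore not set against a chance rate. Prdx6 in rods was at 55.6 CPM in wt/wt 3, a batch 1 retina, against 33.7 CPM in the next highest. Hmox1 was lowest in ko/ko 2, at 2.51 CPM in photoreceptors (9 UMIs) and 2.74 CPM in rods. The other 4 rest on 1 or 2 UMIs: Gpx3 in mesenchymal cells at 12.3 CPM in wt/wt 1, Txnip in interneurons at 4.07 CPM in ko/ko 1, and Hmox1 in ko/ko 1 at 44.7 CPM in RPE cells and 11.3 CPM in cones. The 629 cells that carry no deposited type, which entered no comparison, held 387 UMIs of the 10 genes.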

How the results depend on the processing

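Between types, alternatives were run only for each member's highest type against the next and for the counts, and between rods and cones only for members and counts. Among the member values recomputed, none that passed the test changed sign. Values that did not pass could cross 0, such as Sod2 in RPE cells minus photoreceptors (-0.18 to 0.56), Prdx6 in cones minus rods (-0.27 to 0.58) and Gpx4 between genotypes in photoreceptors (-0.20 to 0.53). The number of members called between genotypes stayed at 0 in every class, and Prdx2 in cones, Prdx6 in glia, Gpx4 in RPE cells and Txnip in mesenchymal cells were called under each. Prdx2 in interneurons against RPE cells passed under 3 of 19 alternatives, Cat in RPE against mesenchymal cells under 1 of 14 (wt/wt retinas, adjusted p = 0.0447) and Sod1 in cones against rods under 1 of 21 (without wt/wt 3, adjusted p = 0.0421). Gpx1 in cones was lost under 14 of 21 alternatives and Gpx4 under 10, so the members called between rods and cones fell to 1 under DESeq2, in the wt/wt, the ko/ko or the batch 2 retinas, with cones and rods set by UMIs of the cone list and without the replicate block, and to 1 to 3 with single retinas left out. The cause was not tested. Without the filter on low counts, which tests more genes, the genes called were 15741 between types, 2295 between batches (2 members), and between genotypes 1 in photoreceptors, 1 in interneurons, 28 in mesenchymal cells, 3 in RPE cells, and 1 in rods. With the batch as a covariate, 21 genes were called between genotypes for mesenchymal and 3 for RPE cells, and by DESeq2 1 for RPE cells. With single retinas left out the genes called were 0 to 7 in mesenchymal cells (7 without ko/ko 2), 0 to 2 in RPE cells (2 without wt/wt 3), 0 to 8 in the interaction (8 without wt/wt 3), and 20 to 4437 between batches, with 0 to 5 members (4437 and 5 without ko/ko 1, 20 without wt/wt 3). Between batches 1 member was called by DESeq2, with RLE factors and in the stricter cells. Replicate numbers are shared by the genotypes, but the deviations of same-numbered retinas correlated at -0.07, 0.54 and 0.52, so the numbers were not taken as pairs. As a replicate block they gave 26 genes for mesenchymal and 4 for RPE cells, and 0 members. Depth limits RPE and mesenchymal cells most: 3 and 4 of the 10 members could be tested between genotypes there.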

Other observations

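For each member tested between types, the 2 protein-coding genes whose levels ran most alike were taken by Pearson's r of log2(CPM + 1) over the 30 sums, among 7451 genes. The sums share their retinas, their depth and 5 type means, so these values are a description. Prdx6 was nearest to Dbi (r = 0.98), the acyl-CoA-binding protein, and to Rlbp1 (0.97), which carries retinoids in Müller glia and RPE. Gpx4 was nearest to Cltrn and Cops9 (0.94 each), and Cat to Decr1 (0.94), a mitochondrial enzyme of unsaturated fatty acid oxidation, and Rapgef3 (0.91). Txnip ran with Pir (0.93) and Mpzl1 (0.90), and Gpx1 with Igfbp7 (0.90), a secreted binding protein of vessels, and Myl12a (0.88). The values were lower for Sod1, with Cox6a1 (0.85) and Gm45234 (0.79), for Prdx2, with Dbp and Pcdhgb4 (0.83 each), and for Sod2, with Ndufb10 (0.74), a subunit of mitochondrial complex I, and Slc39a12 (0.72).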
